A study of Mus musculus with 22 samples.

Results

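Extraocular muscle (EOM), which turns the eyeball, was compared with leg muscle in SJL mice at 12 months of age. The comparison used the 2 SJL EOM arrays (replicates 1 and 3) against the 3 SJL leg arrays (replicates 1, 2 and 3), which are 5 of the 22 arrays of the series, and 12422 probe sets that are not array controls. The 22 arrays measured total RNA from EOM and leg muscle of SJL and Balb mice at 10 and 12 months. SJL is an inbred strain known for a mutation in the dysferlin gene and a slowly progressing muscular dystrophy, and Balb is another inbred strain. No treatment is given for any group, and the leg muscle that was taken, the sex of the mice and whether animals were pooled are not stated. The labels number the replicates without stating whether each is its own animal. The p-values therefore cover the variation among these arrays, which may be technical.

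EOM differs from limb muscle in origin and make-up. Its myoblasts come from head mesoderm rather than from the somites, it keeps embryonic and perinatal myosins in the adult, its motor units are small and its fibres are densely innervated, in part at several sites per fibre. The muscle is known to be spared in several muscular dystrophies that weaken the limbs. Since whole muscle was used, fewer cells of a type and less RNA per cell cannot be told apart in any of the values.

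The deposited values are linear intensities that the authors had scaled so that the trimmed mean was 1501 on each of the 5 arrays. Replicate arrays correlated at Pearson's r of 0.948 to 0.963 across probe sets. The ratio of the 3′ to the 5′ control probe set of Actb, a measure of RNA integrity, ran from 1.04 to 1.56 in leg and was 1.64 and 1.93 in EOM, so the 2 groups did not overlap. For Gapdh the same ratio ran from 0.0534 to 0.0797 in leg and was 0.870 and 1.41 in EOM. The 3′ probe set of Gapdh read 1403, 2756 and 1305 on the leg arrays and 17993 and 28118 on the EOM arrays. The part of these values in the results was not tested.

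At an adjusted p below 0.05, 976 probe sets were higher in EOM (7.86% of those tested) and 866 were lower (6.97%). Below, a probe set or gene that met this threshold is said to have been called, or to have risen or fallen. Differences are given as log2 of EOM minus leg on the log2(intensity + 16) scale, which understates the change of dim probe sets. Of the calls, 490 rises and 324 falls were at least 2-fold, and 9 rises and 8 falls were at least 16-fold. Of the 262 genes selected for naming, 82 had several probe sets, and in 27 of these the probe sets differed in sign. With 1 probe set, the brightest, for each of 8251 genes, 789 genes rose (9.56%) and 650 fell (7.88%), and the median difference over all genes was 0.09. These shares and this median are the background for the list counts below. Every called probe set had EOM arrays that did not overlap the leg arrays. Over all probe sets, 25.0% lay wholly higher and 17.7% wholly lower in EOM. The same arrays gave the calls, so this lack of overlap is no separate support for them. Rises made up 53.0% of calls on the deposited scale and 36.3% when each array was centred on its median (660 rises and 1156 falls). Leaving out EOM replicate 1 or EOM replicate 3 left 617 and 632 rises.

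**Figure D1:**
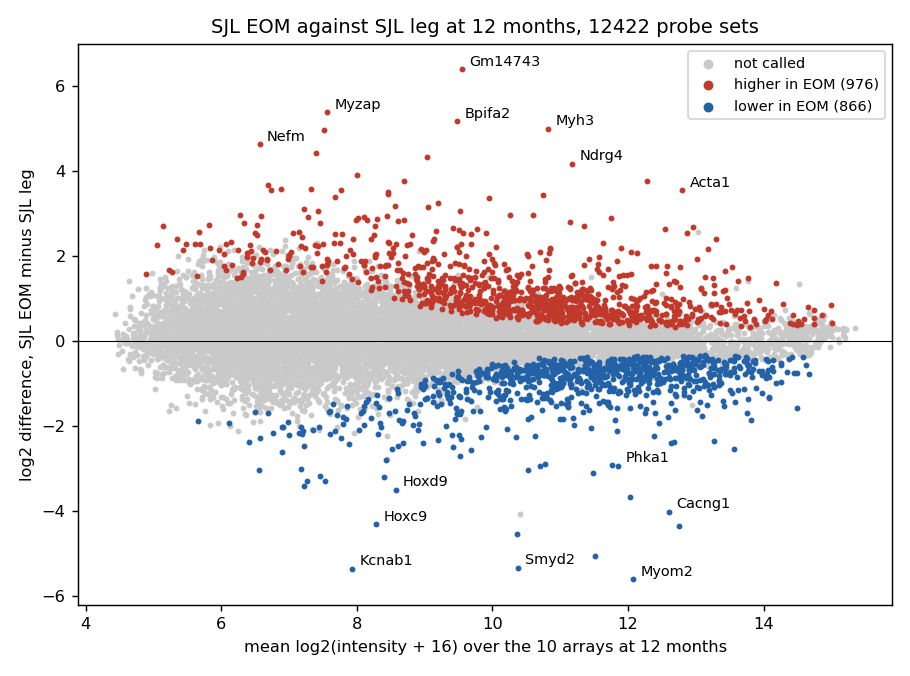
Log2 difference between SJL EOM and SJL leg at 12 months (vertical axis) against the mean log2(intensity + 16) over the 10 arrays at 12 months (horizontal axis) for 12422 probe sets. Red points were called higher in EOM (976), blue points lower (866) and grey points not called. Myh3 and Ndrg4 stand high at the upper edge, and Myom2, Smyd2 and Cacng1 at the lower edge.

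The deepest fall among named genes was in Myom2, which encodes M-protein, a cross-linker of thick filaments at the M band. Its intensity was 22523, 23964 and 18318 in leg and 365 and 497 in EOM. Both EOM arrays lay far below every leg array, and the log2 difference was -5.60 (SE 0.18, limma adjusted p = 1.55e-08). The same probe set differed by -5.60 in Balb and by -4.31 in SJL at 10 months.

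Smyd2, a lysine methyltransferase of muscle cytoplasm and nucleus, fell nearly as far. It read 6247, 6242 and 8342 in leg and 125 and 193 in EOM, and the log2 difference was -5.33 (SE 0.20, adjusted p = 2.83e-08). Kcnab1, a beta subunit of voltage-gated potassium channels, read 1816, 2469 and 2782 in leg and 41 and 42 in EOM (log2 difference -5.35, SE 0.45). Cacng1, the gamma subunit of the skeletal muscle calcium channel, went from 17180, 12380 and 16530 to 735 and 1153 (log2 difference -4.02, SE 0.19, adjusted p = 2.03e-07). All 4 genes lay lower in both EOM arrays than in any leg array at 10 months as well.

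The largest rise with a known role in contraction was in Myh3, the embryonic myosin heavy chain. Leg arrays read 576, 353 and 436 and EOM arrays 14903 and 14385, and the log2 difference was 4.99 (SE 0.19, adjusted p = 2.83e-08). Myh8, the perinatal myosin heavy chain, read 572, 339 and 374 in leg and 4965 and 3984 in EOM (log2 difference 3.36, SE 0.24, adjusted p = 3.61e-06). For both myosins every EOM array lay far above every leg array by these probe sets. The other Myh8 probe set was dim and not called, at -0.97. At 10 months Myh3 read 727 and 274 in leg and 12977 and 11204 in EOM. In Balb at 12 months the log2 differences were 5.22 for Myh3 and 3.42 for Myh8.

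**Figure D2:**
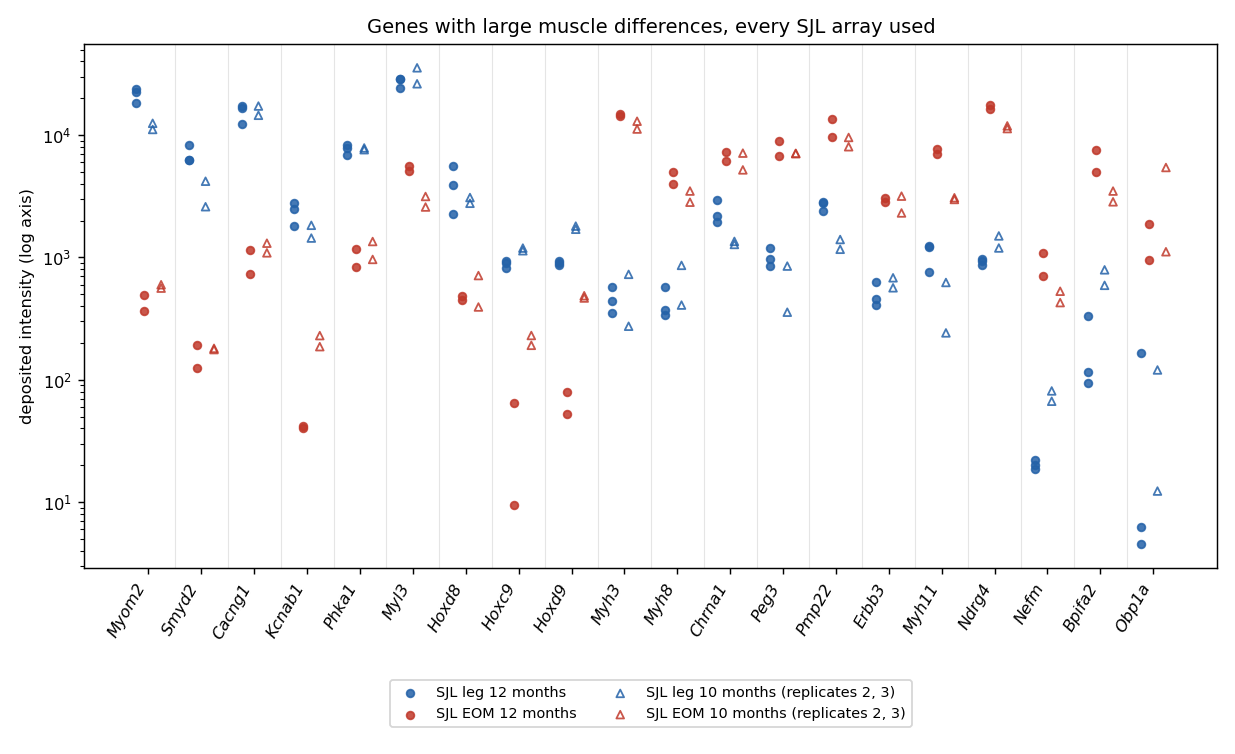
Deposited intensity (log axis) of 20 genes on each SJL array used. Blue marks leg and red marks EOM; filled circles are the 5 arrays at 12 months and open triangles the replicates 2 and 3 at 10 months. For each of the 20 genes, the EOM arrays at 12 months lie wholly on one side of the leg arrays, for example 365 and 497 against 18318 to 23964 for Myom2.

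The other genes with the largest rises were a mixed set. Ndrg4, a cytoplasmic protein known from heart and brain, read 875, 974 and 941 in leg and 17546 and 16328 in EOM (log2 difference 4.16, SE 0.21, adjusted p = 2.81e-07). Gm14743, a predicted gene, went from 40, 168 and 120 to 8907 and 9730 (log2 difference 6.38), and Myzap, a protein of cell junctions first known from heart muscle, from 45, 25 and 39 to 2239 and 2034 (5.37). Genes of the nervous system were among them: Nefm, the medium neurofilament chain, rose by 4.63, Kcna1, a potassium channel subunit of axons, by 3.68, and Nsg2, a neuronal vesicle protein, by 3.58, all from low leg values that no EOM array approached. The set also held Wfdc18, a secreted whey acidic protein family member (4.32), Pon1, paraoxonase (3.45), Epyc, a small matrix proteoglycan (3.38), Rufy3 (3.24), S100a5, a calcium-binding protein (3.90), Syt17 (3.10) and Nr2f1, an orphan nuclear receptor (3.06). Inha, the inhibin alpha chain, rose by 3.51, but at 10 months its difference was -0.64.

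Among the other deep falls, Ccl25, a chemokine, fell by 3.18, Agt, angiotensinogen, fell by 2.41 and Proc, protein C, fell by 2.40. The other probe set of Proc was not called and lay higher, at 0.74. Abcf2 was 2.89 lower by its brighter probe set, whereas its other probe set was not called and lay higher. H2-D4, a histocompatibility gene, fell by 2.81. Of the 40 genes with the largest rises and falls, 33 kept their call under every other pseudocount, filter, scaling, variance model and set of arrays listed under the processing. The other 7 lost it in the fit over all 22 arrays and in no other of these: Abcf2, Acta1, Agt, Ankrd1, H2-D4, Myl3 and Ppp1r3c.

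The list of embryonic and cardiac sarcomere genes had 15 measured members and also held genes from outside the sarcomere, such as Acta2 and Tpm4. Of the 15, 6 rose and 1 fell, with a median log2 difference of 0.99 against 0.09 over all genes. Acta2 was counted in the pericyte and smooth muscle list as well. Besides Myh3 and Myh8, Tpm4, a cytoskeletal tropomyosin, rose by 1.06, Acta2, smooth muscle actin, by 1.30 and Tnni3, cardiac troponin I, by 1.42. Tnni3 read 215, 320 and 147 in leg and 585 and 627 in EOM, and its adjusted p was 0.0605 to 0.124 without leg replicate 1, leg replicate 3 or either EOM array. Mybph, myosin-binding protein H, was the member that fell: it read 6373, 6358 and 4720 in leg and 1719 and 2208 in EOM (log2 difference -1.56, adjusted p = 8.41e-05).

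Genes of the synapse between nerve and muscle had a median of 0.89 over 14 measured members. Of these, 7 rose and 1 fell, against 9.56% and 7.88% of all genes. Chrna1, the alpha subunit of the muscle acetylcholine receptor, read 2934, 2182 and 1935 in leg and 7277 and 6149 in EOM (log2 difference 1.53, SE 0.17, adjusted p = 0.00013). Chrne, the adult epsilon subunit, read 2515, 1203 and 1141 in leg and 4914 and 4734 in EOM (1.66, SE 0.28, adjusted p = 0.00191). For both subunits the EOM arrays lay above every leg array by these probe sets. The other Chrne probe sets lay at 1.18 (called) and 0.56 (not called), and the latter stood at -1.46 at 10 months.

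Agrn, the nerve-derived organiser of the synapse, rose by 1.17 (its other probe set was -0.57 and not called), Lamb2, a synaptic laminin chain, by 0.99, and Prkar1a, a regulatory subunit of protein kinase A, by 0.62. Ache, acetylcholinesterase, and Utrn, utrophin, rose by 0.91 and 0.94, although Ache stood at -1.43 at 10 months. Musk, the receptor kinase through which agrin acts, moved the other way: it read 264, 228 and 272 in leg and 24 and 42 in EOM (log2 difference -2.48, adjusted p = 0.00731; 0.0625 without EOM replicate 1). The delta, beta and gamma receptor subunits Chrnd, Chrnb1 and Chrng were not called, at 1.95, 0.46 and 0.87.

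Stretches of 250 bases before the start sites of Myh3, Myh8, Chrna1 and Chrne are shown. These 4 genes were the embryonic and perinatal myosins and the receptor subunits called higher. They come from RefSeq (GRCm38.p6), are written on the strand of the gene, and have in capitals each E-box (CANNTG, the site family of MyoD-type factors) and each N-box (CCGGAA, a motif known from synaptic genes), found on either strand; the 2 motifs did not overlap in these stretches.
Myh3, chr11:67078050-67078299, plus strand: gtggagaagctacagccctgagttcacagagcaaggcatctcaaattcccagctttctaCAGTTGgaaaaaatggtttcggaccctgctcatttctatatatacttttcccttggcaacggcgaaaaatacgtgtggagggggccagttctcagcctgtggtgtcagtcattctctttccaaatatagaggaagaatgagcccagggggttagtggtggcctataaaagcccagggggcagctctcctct
Myh8, chr11:67276874-67277123, plus strand: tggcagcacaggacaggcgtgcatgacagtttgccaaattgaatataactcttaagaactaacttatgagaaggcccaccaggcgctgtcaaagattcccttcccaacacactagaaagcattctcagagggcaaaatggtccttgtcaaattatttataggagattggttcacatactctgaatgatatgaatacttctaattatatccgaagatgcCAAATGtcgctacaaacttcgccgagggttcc
Chrna1, chr2:73580339-73580588, minus strand: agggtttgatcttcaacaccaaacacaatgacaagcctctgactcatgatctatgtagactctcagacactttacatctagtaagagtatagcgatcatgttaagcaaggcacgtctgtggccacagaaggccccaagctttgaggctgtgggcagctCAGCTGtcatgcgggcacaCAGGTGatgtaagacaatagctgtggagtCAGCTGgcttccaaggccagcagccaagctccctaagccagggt
Chrne, chr11:70619195-70619444, minus strand: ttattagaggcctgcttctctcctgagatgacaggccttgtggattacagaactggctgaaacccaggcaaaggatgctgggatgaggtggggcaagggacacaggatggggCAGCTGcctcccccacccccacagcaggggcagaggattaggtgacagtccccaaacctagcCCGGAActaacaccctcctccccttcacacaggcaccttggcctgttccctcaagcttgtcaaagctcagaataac

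The stretch before Chrna1 held 3 E-boxes, and those before Myh3, Myh8 and Chrne held 1 each. An N-box stood before Chrne alone among the 4. Both motifs are common: of 6576 measured genes with a RefSeq promoter, 58.7% held an E-box and 19.8% an N-box in the same window. Among the genes called higher in EOM the shares were 59.6% and 16.9%, and among those called lower 54.0% and 24.4%. A match describes these letters only.

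Sarcomere genes of adult fibres did not move as a block. Of 12 measured fast fibre genes, 3 passed the test as higher (Myl1, Tnnt3 and Tpm1) and 2 as lower (Myom2 and Actn3), and of 12 slow fibre genes, 1 rose and 4 fell. No direction is given for Myl1, Tnnt3 or Actn3. The median of the fast list was 0.51, and 0.01 over the 6 members left without probe sets above 40000 at 10 months, of which 1 rose and 2 fell. Actn3, the alpha-actinin of fast fibres, read 15716, 12740 and 13621 in leg and 2816 and 2561 in EOM by its brighter probe set (log2 difference -2.37, SE 0.14, adjusted p = 1.1e-06). Its other probe set was called in the opposite direction at 3.76, so no direction is given for the gene at 12 months; at 10 months both probe sets were lower in EOM.

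Myl3, the slow and ventricular essential light chain, was the deepest fall of the slow list. It read 24426, 28731 and 28659 in leg and 5055 and 5542 in EOM (log2 difference -2.36, SE 0.15, adjusted p = 1.68e-06). Atp2a2, the slow fibre calcium pump, fell by 1.53, Ankrd2, a stretch-responsive ankyrin repeat protein, fell by 1.94 and Csrp3, muscle LIM protein, fell by 1.78. Casq2, the cardiac and slow fibre calsequestrin, rose by 1.35, from 504, 596 and 406 to 1352 and 1237.

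The slow myosin heavy chain Myh7 was not called. Its leg arrays read 29513, 38540 and 34983 and its EOM arrays 39361 and 42471 (log2 difference 0.26, adjusted p = 0.288). Myl2 and Tnnc1, the slow regulatory light chain and troponin C, were not called either, at 0.35 and 0.16. The median of the slow list was 0.05, and -0.10 under quantile normalisation and -0.09 under median centring; it was -1.65 over the 6 members left when probe sets above 40000 at 10 months were removed, and -0.27 without EOM replicate 3.

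Several of the brightest muscle transcripts read unusually low on the 12-month leg arrays. Acta1, skeletal alpha-actin, read 955, 9528 and 2057 in leg and 26082 and 37059 in EOM, which gave a called rise of 3.54 (adjusted p = 0.00302). At 10 months the same probe set read 78675 and 66071 in leg and 56683 and 52897 in EOM, a difference of -0.40. The direction at 12 months was thus the opposite of that at 10 months for this gene, and leg replicates differed by about 10-fold among themselves.

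The pattern was shared by other bright genes. Eno3, muscle enolase, rose by 2.40 at 12 months and stood at -0.24 at 10 months. Casq1, the fast fibre calsequestrin, gave 2.67 and -0.31, Myl1, the fast essential light chain, 2.15 and -0.15, and Tnnt3, fast troponin T, 0.85 and -0.28. Pkm, muscle pyruvate kinase, gave 0.86 and -0.25 by one probe set, while another was called lower at 12 months (-1.23, adjusted p = 0.0397). Aldoa, muscle aldolase, differed by 2.54 by one probe set and by -0.02 by the other.

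Of 100 probe sets with a mean above 40000 in SJL leg or EOM at 10 months, 79 passed it in leg, and 10 of these read below 10000 on average in leg at 12 months. Of the 100, 13 were called higher and 2 lower at 12 months. A lower sign at 10 months was seen for 8 of the 13, against 88 of the other 963 called rises. The brightest probe set reached 33366 to 41476 on the leg arrays and 49074 to 53175 on the EOM arrays at 12 months. On the 10-month SJL arrays used it reached 92951 to 122314. Age and array processing cannot be told apart here, and the part of the brightness limit in these calls was not tested. No direction is therefore given for Acta1, Eno3, Casq1, Myl1, Tnnt3, Pkm or Aldoa. Myl1 also lost its call without EOM replicate 1 (adjusted p = 0.0547) or EOM replicate 3 (0.15), and Tnnt3 without EOM replicate 3 (0.112). Myh4, the fast IIB myosin heavy chain, read 597, 14222 and 12925 in leg and 24885 and 32759 in EOM and was not called (adjusted p = 0.129).

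**Figure D3:**
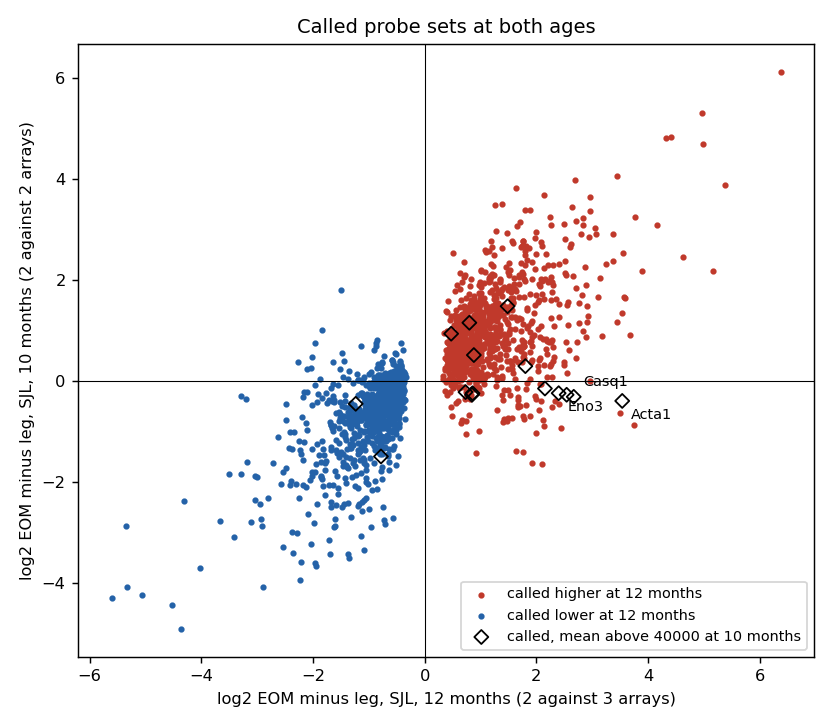
Log2 EOM minus leg in SJL at 10 months (vertical axis, replicates 2 and 3 of each muscle) against 12 months (horizontal axis) for the probe sets called at 12 months, red higher and blue lower. Open diamonds mark the called probe sets with a mean above 40000 at 10 months, 13 called higher and 2 lower; Acta1, Eno3 and Casq1 lie at 2.40 to 3.54 at 12 months and just below 0 at 10 months.

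Of 11 measured genes for proteins of the Z disc and M band, 5 fell and none rose (0 of 11), with a median of -0.30, and -0.12 without EOM replicate 1 and -0.56 without EOM replicate 3. Pdlim3, an actinin-binding LIM protein of the Z disc, read 14009, 14200 and 16140 in leg and 4493 and 4155 in EOM (log2 difference -1.77, SE 0.10, adjusted p = 9.61e-07). Pdlim7, another PDZ and LIM protein, fell by 2.22, Xirp1, an actin-binding repeat protein, fell by 1.13 and Capn3, the muscle calpain, fell by 0.79. The other Pdlim7 probe sets were not called, at -0.28, 0.47 and -0.02. Ankrd1, a titin-associated stress protein, read 4540, 3356 and 2169 in leg and 489 and 570 in EOM (log2 difference -2.57, SE 0.38). Its difference in Balb was -0.46 (adjusted p = 0.45), and the strain difference of -2.11 was not called (adjusted p = 0.17).

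Genes of calcium handling and excitation were split, 5 called higher and 6 called lower of 19. These counts include Casq1, Pvalb and Atp2a1, for which no direction is given. The median was 0.09, and it was -0.05 under median centring and -0.03 without probe sets above 40000 at 10 months. S100a1, a calcium-binding regulator of the release channel, read 7371, 6018 and 6285 in leg and 23768 and 20317 in EOM (log2 difference 1.75, SE 0.13, adjusted p = 4.19e-06). Atp1b1, a sodium pump subunit, rose by 1.19, while Atp1b2, its relative, fell by 1.97. Cacna2d1, the alpha-2-delta calcium channel subunit, fell by 1.61, in the same direction as Cacng1. Pvalb, parvalbumin of fast fibres, read 30233, 37026 and 38943 in leg and 21664 and 19327 in EOM by its brighter probe set (-0.78, SE 0.13, adjusted p = 0.00162). Its other probe set differed by 0.63 and was not called, and stood at 2.71 at 10 months and 3.27 in Balb. Both are among the probe sets above 40000 at 10 months, so no direction is given for Pvalb. Atp2a1, the fast fibre calcium pump, was called at 2.06 but stood at -0.07 at 10 months, when its leg arrays read 40786 and 29587. Its other probe set was called at 1.80, with leg means of 62078 at 10 months and 1768 at 12 months. That probe set is among those above 40000 at 10 months, so no direction is given for Atp2a1.

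Of 26 glycogen and glycolysis genes, 5 were called higher and 6 lower. These counts include Eno3 and Pkm, for which no direction is given. The median was 0.01, and it was -0.13 under median centring and -0.14 without probe sets above 40000 at 10 months. Phka1, the muscle alpha subunit of phosphorylase kinase, read 7792, 6908 and 8272 in leg and 832 and 1168 in EOM (log2 difference -2.93, SE 0.16, adjusted p = 6.1e-07). Phkg1, its catalytic subunit in muscle, fell by 1.24 (adjusted p = 0.0101; 0.0983 without EOM replicate 3).

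Ppp1r3c, which targets protein phosphatase to glycogen, fell by 2.91, from 7365, 6242 and 7744 to 537 and 1595. Fbp2, muscle fructose bisphosphatase, fell by 2.23, and Slc37a4, the glucose 6-phosphate transporter, by a log2 value of -2.40. Gpd1, glycerol phosphate dehydrogenase, fell by 1.62 (adjusted p = 0.00559; 0.0737 without EOM replicate 1). Gbe1, the glycogen branching enzyme, rose by 0.88 (adjusted p = 0.00418; 0.0574 without EOM replicate 1). Pygm, muscle glycogen phosphorylase, was not called at 0.16.

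Fatty acid oxidation genes held 8 rises and 2 falls among 24, with a median of 0.27. Slc25a20, the mitochondrial carnitine carrier, read 5190, 6222 and 5852 in leg and 10802 and 9688 in EOM (log2 difference 0.83, SE 0.11). Echs1, Hadh and Eci1, matrix enzymes of the pathway, rose by 0.75, 0.68 and 0.70. Ucp3, the uncoupling protein of muscle, fell by 0.94 and Acadm, an acyl-CoA dehydrogenase, fell by 0.43. Of 54 genes of oxidative phosphorylation and the TCA cycle, 3 rose and 1 fell, and the median was 0.25; over all genes 9.56% rose and 7.88% fell. Cox6a1, the broadly expressed form of a cytochrome oxidase subunit, read 10275, 7935 and 9500 in leg and 18210 and 15695 in EOM (0.88, SE 0.14).

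Hox genes encode the factors that set position along the trunk and limbs. Of 30 measured, 8 fell and 0 rose, with a median of -0.64, against 7.88% lower and 9.56% higher over all genes. The 8 were Hoxa5, Hoxa10, Hoxa11, Hoxc6, Hoxc9, Hoxd8, Hoxd9 and Hoxd10: 3 of 10 measured in the A cluster, 2 of 5 in C and 3 of 7 in D, with 0 of 8 in B. Hoxd9 read 937, 903 and 864 in leg and 52 and 80 in EOM (log2 difference -3.50, SE 0.30, adjusted p = 1.87e-05). Hoxc9 went from 929, 900 and 815 to 64 and 9 (-4.31, SE 0.61), and Hoxd8 from 3902, 5628 and 2283 to 449 and 484 (-2.94, SE 0.29). Both EOM arrays were far under every leg array for these 3 genes. Without EOM replicate 1 the count of falls was 4, and without EOM replicate 3 it was 7; Hoxa5 (adjusted p = 0.136) and Hoxd10 (0.153) were among those lost without EOM replicate 1. Both also lost the call without leg replicate 2 (0.0618 and 0.0665), and Hoxa5 without leg replicate 3 (0.0762).

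En1, a homeobox factor of limb and midbrain patterning, also fell: it read 1529, 1356 and 1208 in leg and 295 and 126 in EOM (-2.71, SE 0.29, adjusted p = 9.86e-05). Of 10 other limb and trunk factors, 3 rose. Shox2 rose by 1.90 and Tbx15 by 1.00, and Pitx1, a factor of hindlimb identity that is also expressed in head structures, rose by 1.44 (adjusted p = 0.018; 0.0576 without leg replicate 1 and 0.197 without EOM replicate 3).

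Factors known from head and orbit development gave 2 rises and 2 falls among 27, near the background. Eya2, a transcriptional coactivator, rose by 1.35 and Twist1, a factor of mesenchyme, by 2.05 (adjusted p = 0.0101; 0.101 without EOM replicate 1). Six2 fell by 2.04, from 4746, 4171 and 4531 to 837 and 1392, and Hand2 fell by 2.10 (adjusted p = 0.0184; 0.061 without leg replicate 3 and 0.151 without EOM replicate 3). Hand2 stood at 0.24 at 10 months.

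Signals of retinoic acid and orbital mesenchyme held 8 rises and 1 fall among 27, with a median of 0.48. Gas1, a membrane receptor in hedgehog signalling, read 2118, 2266 and 2421 in leg and 8406 and 6360 in EOM (1.68, SE 0.18), and Ptch1, a receptor of the same pathway, rose by 1.07 (adjusted p = 0.0153; 0.0526 without leg replicate 1 and 0.149 without EOM replicate 1). Dkk3 and Sfrp2, secreted proteins related to Wnt inhibitors, rose by 1.61 and 1.58. Rxrg, a retinoid receptor, fell by 1.78, from 2257, 2343 and 2522 to 526 and 875.

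Schwann cell and myelin genes had the highest list median, 1.38 over 16 genes. Of these, 8 rose and 0 fell, against 9.56% and 7.88% of all genes. Pmp22, a protein of peripheral myelin, read 2399, 2856 and 2792 in leg and 13638 and 9616 in EOM (log2 difference 2.09, SE 0.15, adjusted p = 4.76e-06). Erbb3, the neuregulin receptor of Schwann cells, went from 625, 459 and 412 to 3037 and 2832 (2.54, SE 0.23), and Mbp, myelin basic protein, from 735, 876 and 863 to 3369 and 3783 (2.10, SE 0.19). Sox10, which defines the glial lineage, rose by 1.51 and Egr2, its partner in myelination, by 1.10 (adjusted p = 0.0094; 0.0795 without EOM replicate 1). The summed intensity of the 16 genes was 13993 to 14629 on the leg arrays and 32578 to 37250 on the EOM arrays.

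Axon and neuron genes gave 4 rises and 0 falls among 16 (median 0.75). Besides Nefm, Tac1, the substance P precursor, read 149, 96 and 72 in leg and 795 and 774 in EOM (2.77, SE 0.57, adjusted p = 0.00586). Th, the rate-limiting enzyme of catecholamine synthesis, rose by 2.06, though its adjusted p was 0.0625 to 0.132 without leg replicate 1 or either EOM array. Nefl and Nefh, the other neurofilament chains, were not called, at 0.33 each.

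Vessel genes were measured through 2 lists. Of 18 endothelial genes 7 rose and 0 fell (median 0.60), and of 15 pericyte and smooth muscle genes 9 rose and 1 fell (median 0.87). The shares over all genes were 9.56% and 7.88%. Myh11, the smooth muscle myosin heavy chain, read 1247, 765 and 1210 in leg and 7714 and 7068 in EOM (log2 difference 2.80, SE 0.19, adjusted p = 3.06e-06). Mylk, myosin light chain kinase, rose by 1.62 and Tagln, transgelin, by 1.21. The pericyte marker Rgs5 was not called at -0.43, with means of 601 in leg and 430 in EOM. Its other probe set was not called either, at 0.15.

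Eng, endoglin of vessel walls, read 5262, 3745 and 4116 in leg and 12753 and 17106 in EOM (1.77, SE 0.17). The angiopoietin receptor family member Tie1 rose by 0.94, and the endothelial sialomucin Emcn by 1.01. Abcc9, a subunit of the ATP-sensitive potassium channel that striated muscle also expresses, was the member that fell, by a log2 value of -1.19. Pecam1, another endothelial marker, was not called at -0.41, with 811, 752 and 1163 in leg and 498 and 886 in EOM. The summed intensity of the endothelial list was 29064 to 33057 in leg and 52745 to 53002 in EOM, and its part in other results was not tested.

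Connective tissue was described by 2 lists as well. Extracellular matrix genes held 16 rises and 1 fall among 48 (median 0.47), and fibroblast markers 5 rises and 0 falls among 13 (median 0.45). Among all genes 9.56% rose and 7.88% fell. Lum, lumican of collagen fibrils, read 3676, 4279 and 3814 in leg and 12255 and 11519 in EOM (1.60, SE 0.12, adjusted p = 6.5e-06). Ogn and Bgn, matrix proteoglycans, rose by 1.01 and 0.90, and Col15a1 and Col5a1, collagen chains, by 1.06 and 0.85. Fmod, fibromodulin, fell by 1.24. Col1a1 and Dcn, the main interstitial collagen chain and decorin, were not called, at 0.27 and 0.20. Without EOM replicate 1 there were 10 matrix rises and without EOM replicate 3 there were 9.

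Genes of tendon, cartilage and bone gave 0 calls among 14.

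**Figure D4:**
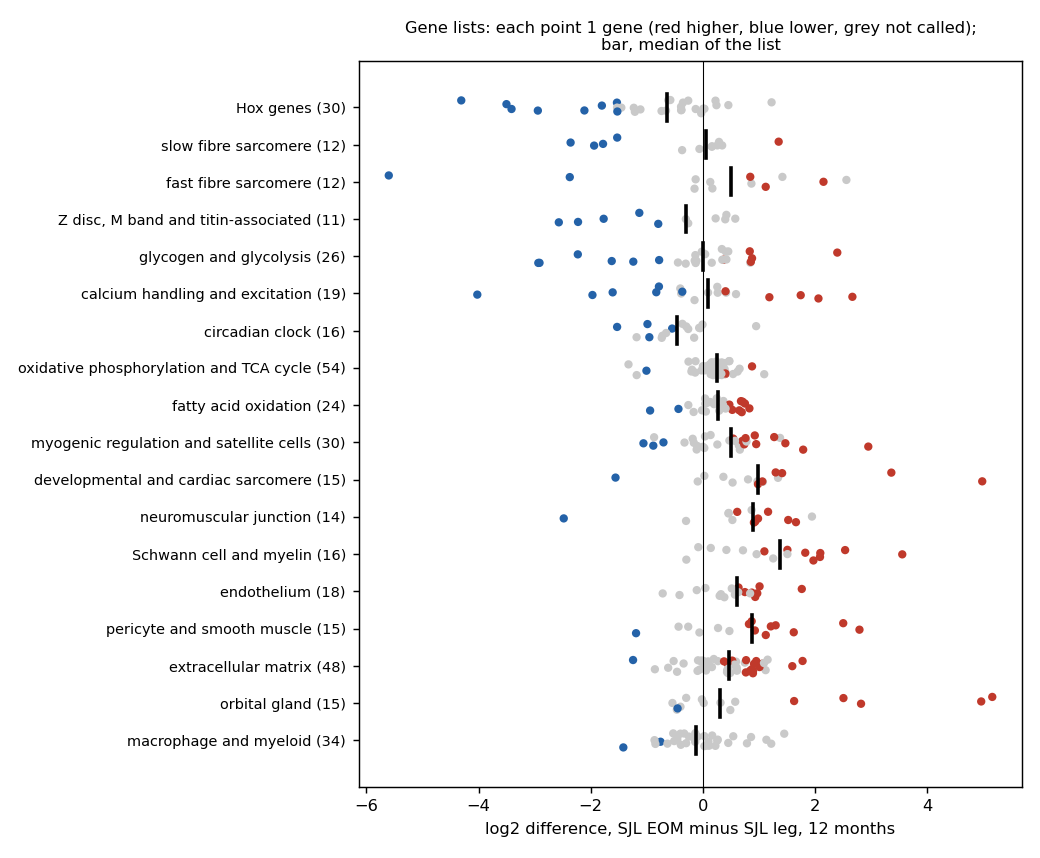
Log2 difference between SJL EOM and SJL leg at 12 months (horizontal axis) for the measured genes of 18 lists, with the number of genes in brackets. Red points rose, blue points fell, grey points were not called, and the black bar is the list median, from -0.64 for Hox genes to 1.38 for Schwann cell and myelin genes. The medians of the slow fibre, glycogen and calcium lists, all within 0.10 of 0, change sign under median centring.

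Regulators of myogenesis and satellite cells held 10 rises and 3 falls among 30 (median 0.51); without EOM replicate 1 there were 4 and 0, and without EOM replicate 3 there were 4 and 3. Peg3, an imprinted zinc finger gene of muscle stem cells, read 1183, 973 and 850 in leg and 8935 and 6808 in EOM (log2 difference 2.95, SE 0.19, adjusted p = 2.22e-06). Id2, an inhibitor of MyoD-type factors, rose by 1.47. Of those factors, Myf5 rose by 1.79 and Myog by 0.93, Myod1 fell by 0.70 and Myf6 was not called at -0.33. Myf5 read 151, 199 and 97 in leg and 581 and 494 in EOM. Mef2c, a partner of these factors, fell by 1.06 (0.0589 without EOM replicate 1), as did Mstn, the growth inhibitor myostatin, by 0.88 (0.0518 without EOM replicate 1).

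The dystrophin complex and sarcolemma list gave 6 rises and 2 falls among 23 (median 0.27), and without EOM replicate 1 or 3 there were 3 rises. With 9.56% of all genes higher and 7.88% lower, the share of falls in this list lay near the background. Dmd, dystrophin itself, was not called at -0.01, with 1071, 825 and 938 in leg and 1192 and 731 in EOM. Sgce, epsilon-sarcoglycan, rose by 1.06, from 2200, 1806 and 1654 to 3773 and 4103, whereas Sgca, the alpha-sarcoglycan of striated muscle, fell by 0.54, from 17648, 16780 and 16327 to 11911 and 11396. Anxa5, an annexin, rose by 1.00. Dysferlin is not among the named probe sets and was not analysed here.

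Markers of tissues next to the eye were checked because dissected EOM can carry them. Of 15 orbital gland genes, 5 rose and 1 fell, against 9.56% and 7.88% of all genes. Bpifa2, a secreted salivary protein, read 116, 329 and 95 in leg and 7576 and 4961 in EOM (log2 difference 5.17, SE 0.44, adjusted p = 1.67e-05). Obp1a, an odorant-binding protein of glands, went from 4, 164 and 6 to 955 and 1887 (4.97, SE 0.89), and Mup5, a major urinary protein, rose by 2.82. Klk1, tissue kallikrein, rose by 2.51 (adjusted p = 0.0126; 0.145 without EOM replicate 1). Ltf, lactoferrin, also rose, by 1.63, and Slc12a2 was the member that fell, at a log2 difference of -0.45. Both lost the call without leg replicate 2 or leg replicate 3. The gland marker Amy1 was not called and lay lower, with means of 3576 in leg and 2631 in EOM (log2 difference -0.46). The summed intensity of the 15 genes was 16779 to 17100 in leg and 20680 to 24506 in EOM. Their part in the other rises was not tested.

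Retina, lens and cornea genes gave 2 rises and 1 fall among 25 (median 0.09). Across all genes 9.56% rose and 7.88% fell, and the retina, epithelial and melanocyte counts lay near or below these shares. Guca1a, a photoreceptor calcium sensor, rose by 2.13 (0.0855 without EOM replicate 1), Gnb1, a G protein beta subunit expressed in many tissues, rose by 0.97, and Opn1mw, a cone opsin, fell by 1.89. The other Gnb1 probe sets were not called, at -0.03 and -0.18. The rod gene Sag read 12, 134 and 100 in leg and 77 and 140 in EOM. The lens gene Cryaa read 100, 69 and 88 in leg and 160 and 93 in EOM. Neither Sag nor Cryaa was called. Epithelial genes gave 2 rises among 25, Cdh1 (0.73) and Muc1 (1.35), and neither call was stable. Cdh1 lost it without leg replicate 2 (adjusted p = 0.0542) or EOM replicate 3 (0.126), and Muc1 without leg replicate 2, leg replicate 3 or either EOM array (0.0581 to 0.131). Melanocyte genes gave 1 rise among 10, Kit (2.00; adjusted p = 0.0563 without EOM replicate 3).

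Immune cell lists showed few calls, beside 9.56% of all genes higher and 7.88% lower. Of 34 macrophage and myeloid genes 0 rose and 2 fell, and of 21 lymphocyte genes 0 rose and 1 fell. The macrophage genes were Lgals3, galectin 3, which fell by 1.42, and Ctss, cathepsin S, which fell by 0.75. Ctss read 6218, 6436 and 5840 in leg and 3695 and 3602 in EOM, and lost its call without any single one of the 5 arrays, with adjusted p from 0.0562 to 0.12. Lgals3 lost its call without EOM replicate 1 (0.0509) or EOM replicate 3 (0.0626). The pan-macrophage markers Cd68 and Csf1r were not called, at -0.46 and 0.11.

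Ighm, the immunoglobulin mu heavy chain, was the lymphocyte gene that fell. It read 15432, 15168 and 14883 in leg and 1012 and 1382 in EOM (log2 difference -3.66, SE 0.15, adjusted p = 4.97e-08). Many other probe sets carry this symbol. One averaged 17290 in leg and 497 in EOM (-5.06, called), and a dimmer one was called at -1.47. The rest were dim and not called, with differences of both signs. The B cell genes Cd79a, Cd79b and Jchain were not called, and their differences were 0.90, 1.00 and 0.53. For the next lists, the shares over all genes were 9.56% higher and 7.88% lower. Among antigen presentation genes, 1 of 19 rose and 2 fell, the class II genes H2-Aa (-0.74) and H2-Eb1 (-0.68); both lost the call when any single one of the 5 arrays was left out. Of 19 complement genes 5 rose and 0 fell, among them Serping1, the C1 inhibitor, at 0.81 and C1ra, a C1 protease, at 1.05; the count was 2 without EOM replicate 1.

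Of 16 measured genes of the circadian clock, 4 fell and 0 rose (median -0.45), against 7.88% and 9.56% of all genes. The fit over all 22 arrays called 0 of these clock genes. Rora, a nuclear receptor of the clock, read 2124, 1872 and 1984 in leg and 826 and 559 in EOM (-1.53, SE 0.19, adjusted p = 0.000259). Bhlhe40 fell by 0.99 and Tef by 0.95, both transcription factors under clock control. The labels give no time of day. Among 27 immediate early and heat shock genes 1 rose and 3 fell, led by Nr4a1, an orphan nuclear receptor, which read 7265, 7115 and 7728 in leg and 2459 and 2592 in EOM (-1.54, SE 0.14). Odc1, ornithine decarboxylase, fell by 1.83, from 4865, 4999 and 5258 to 1401 and 1418.

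Adipocyte genes gave 5 rises and 1 fall among 17. Scd2, a fatty acid desaturase, read 1978, 2066 and 1535 in leg and 7914 and 6308 in EOM (1.93, SE 0.16), and Cidea, a lipid droplet protein of brown fat, rose by 2.08. Fabp4, the fatty acid carrier of fat cells, was not called at 0.10, and Adipoq, adiponectin, rose by 0.57 but lost its call without leg replicate 2, leg replicate 3 or either EOM array (adjusted p = 0.0806 to 0.139). Car3, carbonic anhydrase III of muscle and fat, fell by 1.16 (0.107 without EOM replicate 3).

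The 10-month SJL arrays gave a separate set of libraries for the same contrast. Replicates 2 and 3 of each muscle were used there, since the replicate 1 arrays had 3′ to 5′ ratios of Actb from 5.05 to 53.7. Of the 976 probe sets called higher at 12 months, 880 (90.2%) had the same sign at 10 months, and 752 (77.0%) had EOM arrays wholly above the leg arrays, against 27.2% of all probe sets. Of the 866 called lower, 757 (87.4%) had the same sign and 607 (70.1%) lay wholly below, against 23.9%. In the opposite direction, 41 and 37 did not overlap. With 2 arrays against 2, no test of the 10-month difference was made.

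Balb mice at 12 months gave 1339 rises (10.8%) and 1035 falls (8.33%). Of the SJL rises, 937 (96.0%) had the same sign in Balb and 612 were called there, which is 62.7% of the SJL rises and 45.7% of the Balb rises. For the falls, 831 (96.0%) had the same sign and 595 were called, 68.7% of the SJL falls and 57.5% of the Balb falls. Calls in opposite directions were few: 1 dim probe set of Derl2 and Ets2 rose in SJL and fell in Balb, and Ctss and 1 probe set of C1qb fell in SJL and rose in Balb. These 4 were named after their values were seen.

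The difference between the strains in the EOM effect was tested in the same fit. It was called for 17 probe sets that were higher in SJL (0.137%) and 33 that were lower (0.266%). At an unadjusted p below 0.05 there were 1307.

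**Figure D5:**
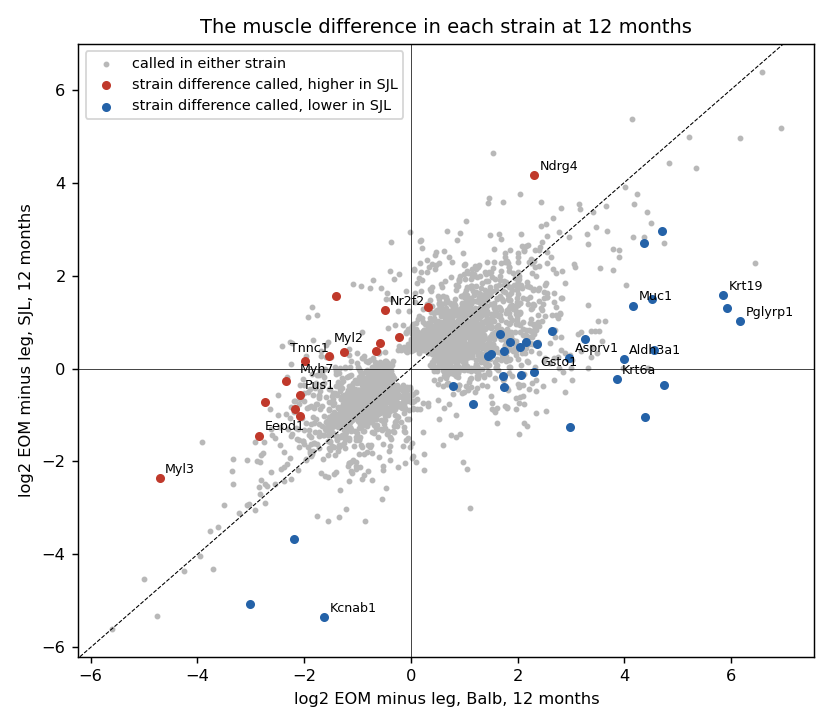
Log2 EOM minus leg at 12 months in SJL (vertical axis) against Balb (horizontal axis) for probe sets called in either strain (grey) and those with a called strain difference, 17 higher (red) and 33 lower (blue) in SJL. The dashed line marks equal differences; the slow fibre genes Myl3, Tnnc1, Myh7 and Myl2 lie above it and the epithelial genes Krt19, Krt6a and Muc1 below it.

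Among genes with a mean of at least 500 in the brightest group, taken by their brightest probe set, slow fibre genes made up 4 of the 8 largest differences on the higher side. The dim Derl2 probe set, at 2.97, lay outside this limit. Myl3 fell by 4.71 in Balb and fell by 2.36 in SJL, a difference of 2.35 (SE 0.21, adjusted p = 0.00084). Tnnc1 fell by 1.98 in Balb and was 0.16 in SJL (difference 2.15, adjusted p = 0.0035). Myh7 and Myl2 fell by 1.53 and 1.25 in Balb and were 0.26 and 0.35 in SJL, with differences of 1.79 (adjusted p = 0.0035) and 1.59 (0.036). At 10 months the SJL difference was -3.41 for Myl3, -0.61 for Tnnc1, -0.42 for Myh7 and -0.60 for Myl2. Myh7 and Myl2 were among the 100 probe sets above 40000 at 10 months, and the part of the brightness limit in their strain difference was not tested.

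Ndrg4 rose by 4.16 in SJL and by 2.31 in Balb, a difference of 1.85 (adjusted p = 0.024). Nr2f2, a nuclear receptor of veins and mesenchyme, read 1085, 1249 and 1260 in SJL leg and 2986 and 2752 in SJL EOM and rose by 1.25, while its Balb difference was -0.49. Eepd1 fell by 1.45 in SJL and fell by 2.84 in Balb, and Pus1, a pseudouridine synthase, fell by 2.08 in Balb and was not called in SJL at -0.56. On the lower side, Kcnab1 fell by 5.35 in SJL and by 1.62 in Balb (difference -3.73, adjusted p = 0.032).

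The other differences on the lower side were mostly rises seen in Balb. Krt19 and Krt6a, epithelial keratins, rose by 5.86 and 3.86 in Balb and were 1.57 and -0.23 in SJL, neither called. Pglyrp1, a peptidoglycan-binding protein of neutrophils and epithelia, rose by 6.17 in Balb, while in SJL it read 201, 168 and 152 in leg and 268 and 492 in EOM (1.01, not called). Muc1, an epithelial mucin, rose by 4.16 in Balb and by 1.35 in SJL. Aldh3a1, an enzyme of the corneal epithelium, rose by 3.99 in Balb and was 0.19 in SJL. Of the 25 epithelial genes, 15 rose in Balb EOM (median 1.91), set against 2 in SJL (median 0.33); over all genes 12.4% rose and 9.57% fell in Balb. The epithelial sum on the SJL arrays was 6388 to 8779 in leg and 6806 to 9640 in EOM, so the groups overlapped. The part of these markers in the other strain differences was not tested.

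Immune genes were also among the strain differences. Lyz2, lysozyme of macrophages, rose by 1.75 in Balb and was -0.40 in SJL, a difference of -2.15 (adjusted p = 0.0062). Ctss differed by -1.92 (adjusted p = 0.016). In macrophage and myeloid genes 10 of 34 rose in Balb EOM. Actc1, cardiac alpha-actin, differed by -1.84 (adjusted p = 0.0191): it rose by 2.37 in Balb, where leg arrays read 6007, 6107 and 9506, and was 0.53 and not called in SJL, where they read 19841, 27284 and 24527. Its other probe set was called higher in SJL (1.49, adjusted p = 7.80e-05) and in Balb (4.52), and differed by -3.04 between the strains (adjusted p = 0.000169). Both Actc1 probe sets are among the 100 above 40000 at 10 months, and the part of the brightness limit was not tested. Lyz2, Ctss and Actc1 were named after their values were seen.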

How the data were processed

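The authors deposited linear intensity values of 12488 probe sets on 22 Affymetrix mouse arrays; per the labels' protocols a standard Affymetrix procedure was used, and the software, background correction and summary method are not given in the sources used here. Control probe sets (66) were left out. Values were analysed as log2(intensity + 16) with limma 3.58.1 (R 4.3.3): 1 mean per group over the 10 arrays at 12 months (6 residual degrees of freedom), eBayes with an intensity trend, and Benjamini-Hochberg adjustment over 12422 probe sets at 0.05. The p-values printed here come from that fit and are two-sided. Arrays give no counts, so their number limits the precision.

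Genes were named through the platform annotation: 10833 probe sets had 1 symbol, 396 several and 1193 none, and the brightest probe set over the 10 arrays stood for each gene. Named were the 20 largest rises and 20 largest falls with non-overlapping arrays and a mean of at least 500 in the brighter group, up to 6 genes per list by adjusted p, 8 strain differences a direction, and cell type markers. Other list members appear where a count or pathway is described and were named after their values were seen. The comparison, the 35 lists and the tests were chosen with earlier results of these data known. Lists were described by counts and medians, with no test of the list. The fit was tested on simulated data: for the SJL comparison over 12422 probe sets it recovered 32% of changes of 1 and 62% of changes of 2 on the log2 scale. Of the simulated calls, 6% were false. The simulation held far fewer changed probe sets than were called here, so these shares do not carry over directly to this comparison. Alternatives were other pseudocounts, filters, scalings, arrays, variance models and each array left out.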

Additional observations from a re-analysis of the deposited data

Results flagged for a closer look

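The difference between EOM and leg differed between SJL and Balb at 12 months, by the limma test of the difference itself, for these 16 genes. Among slow fibre genes the difference of log2 differences, SJL minus Balb, was 2.35 for Myl3, 2.15 for Tnnc1, 1.79 for Myh7 and 1.59 for Myl2. It was 1.85 for Ndrg4, 1.74 for Nr2f2, 1.52 for Pus1 and 1.39 for Eepd1. On the lower side it was -5.16 for Pglyrp1, -4.29 for Krt19, -4.08 for Krt6a, -3.80 for Aldh3a1 and -3.73 for Kcnab1. The smallest 3 of that side were -2.81 for Muc1, -2.74 for Asprv1, a protease of the epidermis, and -2.38 for Gsto1, a glutathione transferase. None of the 16 was reversed by an alternative run, but the fits without trend and over all 22 arrays keep the same difference and could not reverse it. All 16 lost the call without the intensity trend, and 13 lost it in the fit over all 22 arrays. When 1 leg array was left out, 6 to 10 lost it. No group held the 4 arrays needed to look for an array far from the rest.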

How the results depend on the processing

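No call of the SJL comparison was reversed by an alternative run, but most of these runs could not reverse a sign. The called arrays did not overlap, so another pseudocount or an array left out keeps the sign. The fit over all 22 arrays and that without trend keep the same group differences. Against 976 rises and 866 falls, the fit over all 22 arrays gave 169 and 101, and eBayes without trend gave 537 falls. Quantile normalisation gave 851 and 943, and median centring 660 and 1156; the median of all probe sets moved from 0.09 to -0.02 and -0.05. Leaving out 1 array gave 617 to 819 rises and 627 to 706 falls, and 58 of 180 called named genes lost the call without one or the other EOM array. For the strain difference (17 and 33), all 22 arrays gave 0 and 8, eBayes without trend 1 and 3, a replicate block 9 and 14, and 1 array left out 4 to 14 and 13 to 33. With the replicate block the SJL counts were 819 and 770. Deviations of same-numbered SJL leg and EOM arrays from their group means correlated at r = 0.0037 (replicate 1) and 0.00352 (replicate 3). With so few EOM arrays, their deviations are mirror images of each other, so these values cannot decide whether the numbers pair the samples. Removing probe sets above 40000 at 10 months, an alternative chosen after seeing the data, gave 974 and 869. With the replicate 1 arrays at 10 months, 885 and 808 calls had the same sign; with pseudocount 64, 881 and 757. Differences of dim probe sets depend on the pseudocount. The cause of the changes in counts was not tested.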
